A study of Mus musculus with 8 samples.

Results

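The BCL2 family decides whether a cell under stress permeabilizes its mitochondria and dies. Pro-survival proteins (encoded here by Bcl2, Bcl2l1, which encodes BCL-XL, and Mcl1) hold the pore-forming effectors BAX and BAK (Bax, Bak1) in check, and BH3-only proteins (Bcl2l11, which encodes BIM, Bmf, Bad, Bbc3, which encodes PUMA, and Bid) carry death signals by occupying the pro-survival proteins or by activating the effectors. Several of the BH3-only genes are known to be induced when growth factor receptor signalling is withdrawn, and Bbc3 and Bax are known as targets of the transcription factor p53. These 10 genes were picked out of the deposited count table by their symbols, and all 10 were among its 50600 genes and among the 14497 that reached 10 counts in 2 or more libraries.

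RNA was sequenced from 2 mouse lines of malignant peripheral nerve sheath tumour (MPNST). NF1-MET, the parental line in the text, came from a tumour with amplified Met and wild-type Trp53 (Nf1 fl/ko; lox-stop-lox MET tg/+; Plp-creERT tg/+), and NF1-MET;sgP53, the knockout line in the text, was derived from it by CRISPR-Cas9 knockout of Trp53 with a guide against exon 4. Both lines therefore share the Nf1 and MET alleles, Cre under the Plp promoter of the Schwann lineage, and the spontaneous loss of Cdkn2a that the study describes for NF1-MET. Each line was given vehicle (DMSO) or 100 nM of the MET kinase inhibitor capmatinib for 24 h, with 2 libraries in each of the 4 groups. Each genotype was 1 line, so p53 loss cannot be told apart from other differences between the lines. The methods also describe NF1-MET cells given the empty lentiviral vector and selected with puromycin. The columns of the NF1-MET libraries carry a code that may stand for these cells, while the labels call the line NF1-MET. The labels name the replicates biological and the methods describe duplicate treatment in multiwell plates. Whether the duplicates came from separate cultures is not given in the sources used here, so the p-values measure the spread between these libraries, which may be technical.

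The 8 libraries held 30.1 M to 42.8 M counts. Trp53 served as a check of the labels. Among vehicle libraries it was at 182 and 193 counts per M scaled by TMM (CPM) in the parental line and at 97.5 and 100.1 CPM in the knockout line, and Cdkn1a, a p53 target, was at 92.9 and 87.2 CPM against 29.5 and 27.1 CPM. Both were also lower in the knockout line under capmatinib. Of 10 markers of Schwann lineage and MPNST, 5 (Sox10, S100b, Ngfr and Erbb3 among them) were under 1 CPM in every library, so the labelled lineage rested on the other 5. Immune markers summed to 0.831 to 1.93 CPM and endothelial, epithelial and muscle markers to at most 0.358 CPM. The RNA Gm42418 took 1.11% to 13.1% of the counts, and this share differed between replicates of the same group.

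Upstream bases of 6 members are shown because their levels moved most (Bmf, Bid and Bcl2l1) or because a searched motif lay in them (Bax, Bcl2l11 and Bbc3). The sequences are RefSeq's for GRCm38.p6 (mm10), read on the strand of the gene and ending just before the start site or before the first annotated exon base. Capitals mark a match, on either strand, to a FOXO core (GTAAACA), an E-box (CACGTG) or the p53 decamer consensus.
Bmf, chr2:118549688-118549936, minus strand: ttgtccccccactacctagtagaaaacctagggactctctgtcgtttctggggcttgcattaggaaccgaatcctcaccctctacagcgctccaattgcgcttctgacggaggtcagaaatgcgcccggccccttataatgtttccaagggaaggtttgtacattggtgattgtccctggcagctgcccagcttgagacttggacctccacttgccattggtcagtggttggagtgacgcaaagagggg
Bmf, inner start site, chr2:118544588-118544837, minus strand: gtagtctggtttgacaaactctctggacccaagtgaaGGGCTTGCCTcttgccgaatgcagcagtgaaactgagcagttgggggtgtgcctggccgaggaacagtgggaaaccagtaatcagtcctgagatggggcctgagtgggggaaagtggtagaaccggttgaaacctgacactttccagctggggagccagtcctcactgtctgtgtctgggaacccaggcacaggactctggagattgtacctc
Bid, chr6:120916854-120917074, minus strand: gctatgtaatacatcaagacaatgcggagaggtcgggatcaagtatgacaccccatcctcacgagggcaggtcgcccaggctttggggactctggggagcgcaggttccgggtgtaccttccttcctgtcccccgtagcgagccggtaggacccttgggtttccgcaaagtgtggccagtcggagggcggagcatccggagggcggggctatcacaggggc
Bcl2l1, chr2:152831729-152831978, minus strand: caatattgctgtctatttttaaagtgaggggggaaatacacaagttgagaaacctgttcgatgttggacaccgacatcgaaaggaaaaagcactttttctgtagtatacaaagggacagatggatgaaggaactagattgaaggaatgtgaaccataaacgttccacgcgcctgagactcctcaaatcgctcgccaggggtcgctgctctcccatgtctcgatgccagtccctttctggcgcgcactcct
Bcl2l11, chr2:128125788-128126037, plus strand: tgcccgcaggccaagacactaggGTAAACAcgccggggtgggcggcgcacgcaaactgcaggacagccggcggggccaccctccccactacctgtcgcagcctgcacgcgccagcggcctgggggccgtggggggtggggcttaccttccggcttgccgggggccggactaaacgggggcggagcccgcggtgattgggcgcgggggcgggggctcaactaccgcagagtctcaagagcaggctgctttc
Bax, chr7:45466899-45467148, minus strand: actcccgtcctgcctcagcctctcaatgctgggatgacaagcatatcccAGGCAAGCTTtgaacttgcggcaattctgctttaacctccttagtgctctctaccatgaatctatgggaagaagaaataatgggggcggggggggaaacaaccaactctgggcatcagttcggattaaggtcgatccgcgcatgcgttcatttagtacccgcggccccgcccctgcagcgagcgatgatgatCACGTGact
Bbc3, inner start site with the FOXO core, chr7:16310011-16310260, plus strand: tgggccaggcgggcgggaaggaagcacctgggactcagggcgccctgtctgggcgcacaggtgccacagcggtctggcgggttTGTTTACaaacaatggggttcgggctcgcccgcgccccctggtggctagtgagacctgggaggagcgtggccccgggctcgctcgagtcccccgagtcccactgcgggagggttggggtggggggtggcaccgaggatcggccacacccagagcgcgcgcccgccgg
Bbc3, inner start site with the E-box, chr7:16310181-16310430, plus strand: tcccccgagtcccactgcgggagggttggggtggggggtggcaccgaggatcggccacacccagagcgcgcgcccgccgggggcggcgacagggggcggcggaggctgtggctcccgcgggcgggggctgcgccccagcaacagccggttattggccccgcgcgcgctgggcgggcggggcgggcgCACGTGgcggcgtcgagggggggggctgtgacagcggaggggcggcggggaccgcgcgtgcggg

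All 10 members had at least 1 RefSeq start site, 18 in all, and the whole 250 bases before each start were searched on both strands. Some of these windows hold annotated exon bases, as the window of Bak1 does, and those bases were searched but are not printed. The FOXO core lay before 2 of the 18 start sites, those of Bcl2l11 and of an inner start of Bbc3, against 3.17% of all 32851 start sites. The E-box lay before 2 (Bax and Bbc3) against 6.02% of all. The p53 decamer lay before 2 (Bax and the inner start of Bmf shown above) against 7.13% of all. No AP-1 site (TGANTCA, in 6.75% of all) and no ETS core (CCGGAAGT, in 2.88% of all) was in these windows. The outer Bmf window, another inner Bmf window that is not shown, the Bid window and the 3 Bcl2l1 windows held none of the 5 motifs. These are matches of letters in short windows and no binding was measured.

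Levels per transcript length placed the members in the same library beside each other. They are given as TPM, from the union of each gene's exons in GENCODE M21. In the parental line with vehicle Mcl1 was highest at 224 TPM and Bak1 next at 139.9 TPM. Bax (100.5 TPM) and Bcl2l1 (96.3 TPM) overlapped between libraries, and Bad followed at 30.1 TPM. The low members were Bbc3 at 12.5, Bcl2 at 12.1, Bcl2l11 at 9.47 and Bid at 7.88 TPM. Bbc3 overlapped Bcl2, and Bcl2l11 overlapped Bid. Bmf came last at 0.668 TPM. Bmf was also last in the other 3 groups, but under capmatinib it stood at 8.05 TPM in the parental line and 6.98 TPM in the knockout line. With the longest transcript as length, Bak1 held 49.5% and 49.4% of the summed level of Bak1 and Bax in the parental line with vehicle. With the union of exons it held 58.2% and 58.1%, so the order of these 2 genes there depends on the length used. Bcl2l1 there had a mean of 135 TPM with the longest transcript, above Bax (113 TPM) and Bak1 (111 TPM). Its place among the members therefore also depends on the length. The total behind TPM includes Gm42418, whose part in these levels was not tested.

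The make-up of each class moved with capmatinib. Among the pro-survival transcripts, Bcl2l1 held 28.6% and 29.2% of the summed TPM in the parental line with vehicle and 18.7% and 18.4% with capmatinib. In the knockout line it held 26.3% and 25.4% with vehicle and 15.7% and 14.7% with capmatinib. The treatments did not overlap in the share of Bcl2l1 in either line. Mcl1, which encodes a short-lived pro-survival protein, went from a share of 66.9% to 68.0% up to 73.3% to 74.1% in the parental line. In the knockout line its share went from 69.3% to 69.9% up to 77.5% to 77.9%. The level of Mcl1 itself was lower with capmatinib in the parental line, at 168 against 224 TPM. In the knockout line its mean was 191 against 214 TPM, and the treatments overlapped. Bcl2 held 3.39% and 3.85% with vehicle and 8.03% and 7.46% with capmatinib in the parental line. Among the BH3-only transcripts, Bmf went from 1.1% in each vehicle library to 9.81% and 10.3% in the parental line, and from 0.944% and 0.524% to 7.85% and 7.56% in the knockout line. The share of Bid differed between the lines with vehicle, at 11.9% and 13.98% in the parental line and 22.6% and 21.4% in the knockout line, and lay at 25.7% to 27.1% in all 4 capmatinib libraries. With the longest transcript as length, Bcl2l1 held 41.4% and 42.1% in the parental line with vehicle and 28.5% and 28.2% with capmatinib. These shares are a description with no test.

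**Figure D1:**
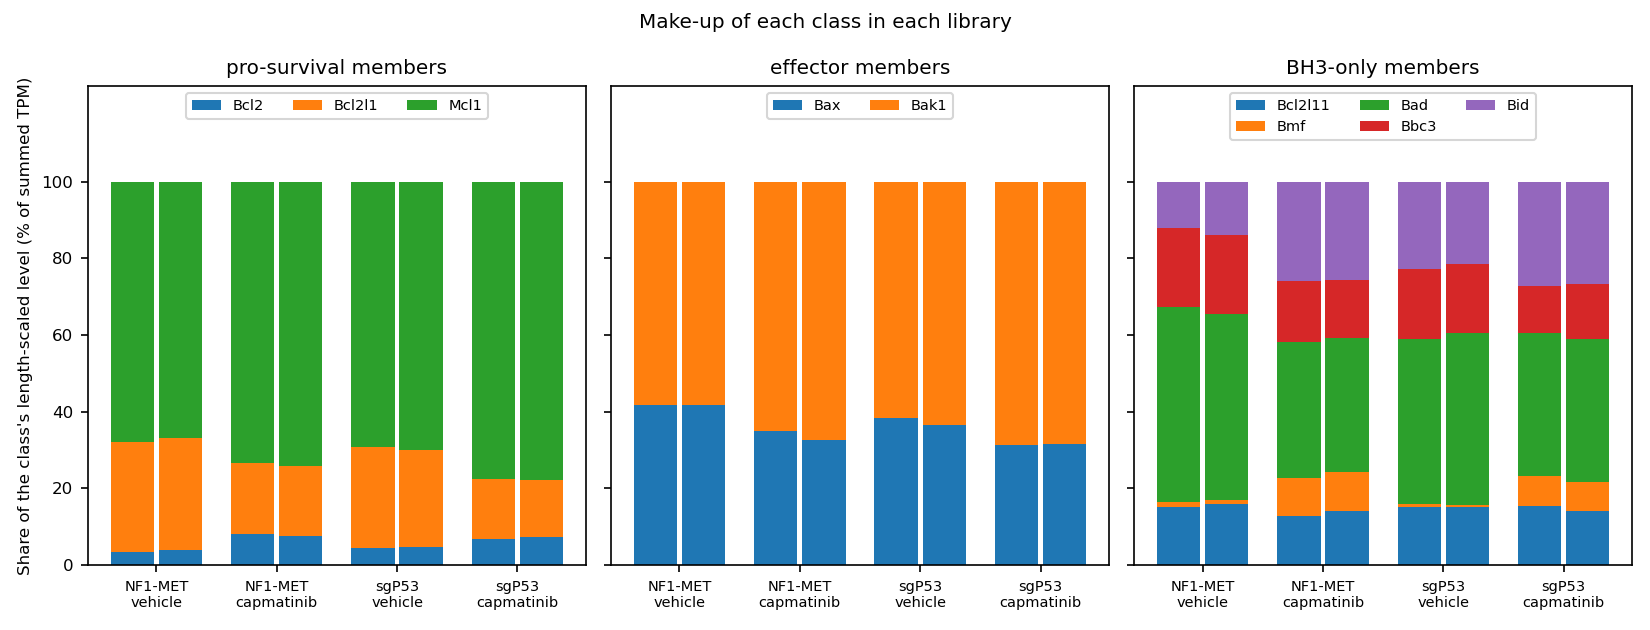
Share of each member in the summed length-scaled level (TPM) of its class, as a percent, in each of the 8 libraries (2 bars per group). Bcl2l1 takes 25.4% to 29.2% of the pro-survival level with vehicle and 14.7% to 18.7% with capmatinib, and Bmf goes from at most 1.1% to at least 7.56% of the BH3-only level.

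Capmatinib was compared with vehicle within each line to ask how MET inhibition moved the family. In the parental line 5 members rose (Bmf, Bid, Bcl2, Bcl2l11 and Bak1) and 3 fell (Bcl2l1, Bax and Mcl1), with Bad and Bbc3 not called at an adjusted p of 0.05. Of all genes tested, 35.5% rose and 34.7% fell. In the knockout line 5 rose (Bmf, Bid, Bcl2l11, Bcl2 and Bad) and 3 fell (Bcl2l1, Bax and Mcl1), with Bak1 and Bbc3 not called, against 34.2% and 33.4% of all genes. The median size of the members' log2 fold change was 0.42 in the parental line and 0.38 in the knockout line, and that of all genes 0.41 and 0.40. The family as a whole therefore moved about as often and as far as the transcriptome did. Between lines, 4 members rose in both (Bcl2, Bcl2l11, Bmf and Bid), where 30.4% of all genes did, and 3 fell in both (Bcl2l1, Mcl1 and Bax), where 29.7% of all genes did. Since RNA was taken from whole wells, fewer cells of a state and less RNA per cell cannot be told apart.

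**Figure D2:**
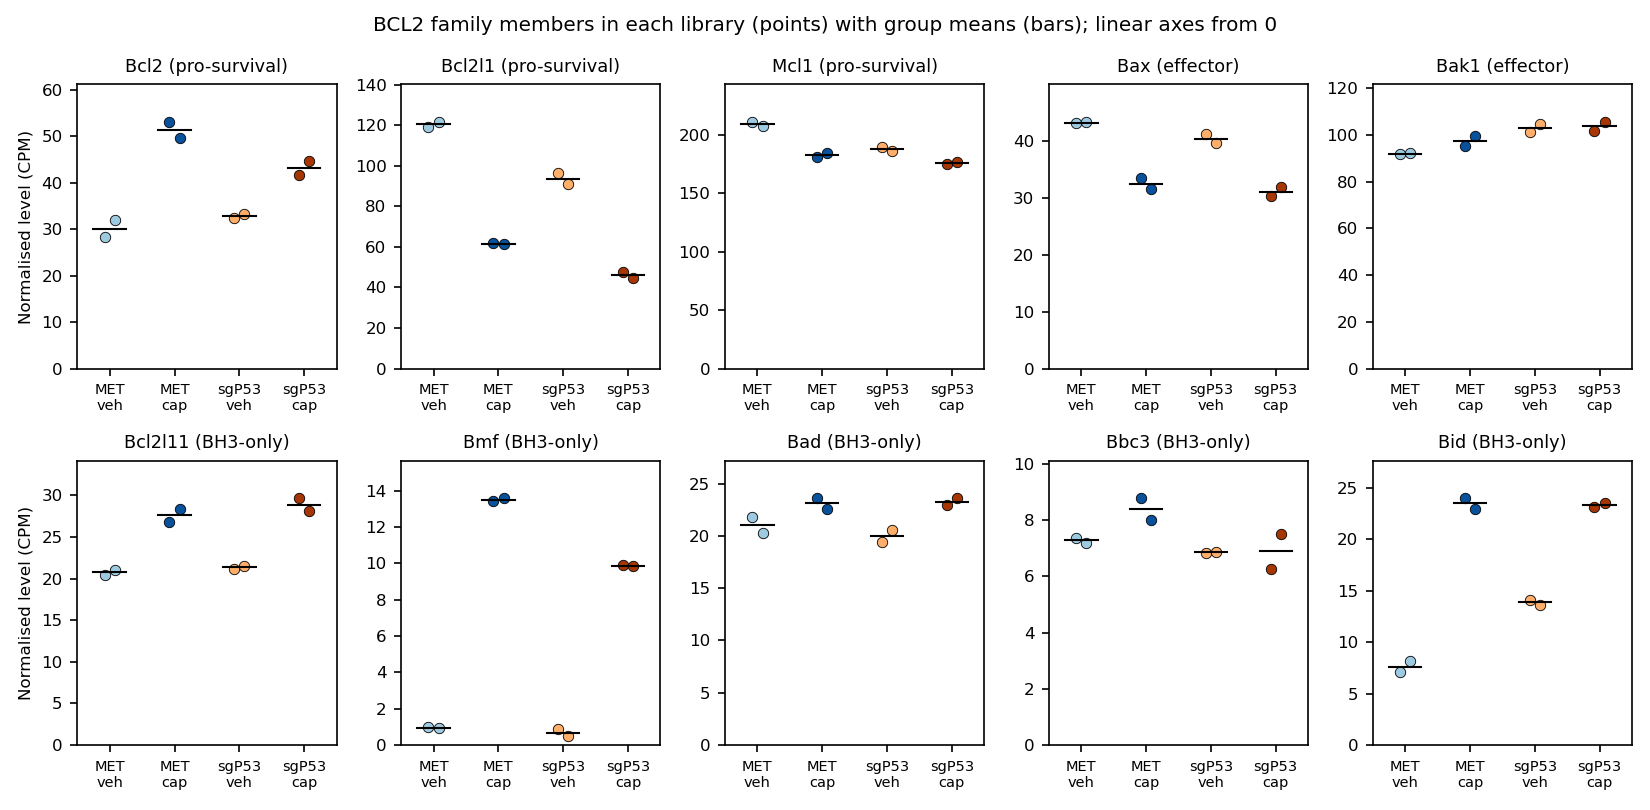
Level of each member in CPM (linear axes from 0) in the 4 groups, with 1 point per library and a bar at the group mean. Bmf is under 1 CPM in all 4 vehicle libraries and at 9.84 to 13.6 CPM with capmatinib, while Bid is apart between the lines only with vehicle.

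Bmf (chr2:118528757-118549687), a BH3-only gene whose protein is known to be released from the cytoskeleton under stress, moved most. It was at 0.964 and 0.953 CPM (35 and 38 counts) in the parental line with vehicle and at 13.4 and 13.6 CPM (371 and 522 counts) with capmatinib. In the knockout line it was at 0.873 and 0.491 CPM (30 and 21 counts) with vehicle and at 9.90 and 9.84 CPM (349 and 357 counts) with capmatinib. Every capmatinib library lay far above every vehicle library in both lines. The rise was 13.9-fold in the parental line (log2 3.80, SE 0.137, adjusted p = 7.91e-22) and 14.8-fold in the knockout line (log2 3.89, SE 0.169, adjusted p = 4.86e-15), which placed Bmf at the percentiles 99.0 and 99.4 of all genes by log2 fold change. The responses of the lines differed by a log2 of 0.08 (95% confidence interval -0.49 to 0.65), so a difference inside that interval was not detectable at the low vehicle counts. No exon of Bmf overlaps another gene in the annotation.

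Bid (chr6:120891930-120916853), which links death receptors to mitochondria when its protein is cleaved by caspase-8, was the other BH3-only gene with a large rise. It was at 7.08 and 8.15 CPM with vehicle and at 24.0 and 23.0 CPM with capmatinib in the parental line, a 3.03-fold rise (log2 1.60, SE 0.0778, adjusted p = 2.49e-18). In the knockout line it went from 14.1 and 13.6 CPM to 23.1 and 23.5 CPM, a 1.68-fold rise (log2 0.75, SE 0.0660, adjusted p = 1.05e-09). The vehicle libraries of the lines did not overlap, while the capmatinib libraries interleaved. Of the exon bases of Bid, 17.7% overlap Bcl2l13 on the other strand, and the strand setting of the counting is not given in the sources used here. Bcl2l13 was at 40.4 to 41.6 CPM with vehicle and 34.9 to 36.0 CPM with capmatinib in the parental line. In the knockout line it was at 44.9 to 47.3 CPM with vehicle and 37.9 to 39.7 CPM with capmatinib. Whether reads from the shared bases enter the Bid counts was not tested.

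Bcl2l11 (chr2:128126038-128162547) rose in both lines. It was at 20.5 and 21.1 CPM with vehicle against 26.9 and 28.4 CPM with capmatinib in the parental line, and at 21.2 and 21.5 against 29.7 and 28.1 CPM in the knockout line. The groups did not overlap, and the log2 fold changes were 0.40 (SE 0.0583, adjusted p = 3.40e-07) and 0.43 (SE 0.0572, adjusted p = 6.41e-07). Bad (chr19:6941861-6951899), whose protein is held inactive by survival kinases, was at 20.3 to 21.8 CPM with vehicle and 22.6 to 23.6 CPM with capmatinib in the parental line (log2 0.12, 95% confidence interval -0.01 to 0.24, adjusted p = 0.0950) and rose from 19.4 and 20.6 to 22.9 and 23.6 CPM in the knockout line (log2 0.22, SE 0.0619, adjusted p = 0.00363). The difference between these responses did not pass (log2 0.09, adjusted p = 0.634), so Bad was not shown to respond in 1 line alone, and library totals ended its call in the knockout line (log2 0.10, adjusted p = 0.505). Exons of Bad overlap Gpr137 (14.4 to 16.2 CPM) on the other strand over 20.5% of their length, and without the first vehicle replicate Bad was also called in the parental line (adjusted p = 0.0340). Bbc3 (chr7:16308393-16318205) was not called in either line, with log2 values of 0.18 (interval -0.02 to 0.39) and 0.0085 (interval -0.21 to 0.23), and its 8 libraries ranged from 6.27 to 8.78 CPM.

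The pro-survival members moved in opposite directions. Bcl2l1 (chr2:152780668-152831728) went from 119 and 122 CPM with vehicle to 61.9 and 61.5 CPM with capmatinib in the parental line and from 96.6 and 91.0 to 47.5 and 44.8 CPM in the knockout line. All 4 groups were apart. It fell to 0.505-fold in the parental line (log2 -0.98, SE 0.0316, adjusted p = 3.43e-23) and to 0.492-fold in the knockout line (log2 -1.02, SE 0.0385, adjusted p = 4.07e-16), and the responses differed by a log2 of -0.05 (95% confidence interval -0.16 to 0.05). Bcl2 (chr1:106538178-106714274), in contrast, rose from 28.2 and 32.0 CPM to 53.2 and 49.7 CPM in the parental line (log2 0.75, SE 0.0522, adjusted p = 2.97e-14) and from 32.4 and 33.3 to 41.6 and 44.6 CPM in the knockout line (log2 0.39, SE 0.0480, adjusted p = 2.16e-07). With vehicle the parental libraries lay just under those of the knockout line, and with capmatinib they lay above them. Mcl1 (chr3:95658788-95663176) fell by less, from 212 and 208 to 181 and 184 CPM in the parental line (log2 -0.21, SE 0.0259, adjusted p = 9.91e-09) and from 190.0 and 186 to 175 and 177 CPM in the knockout line (log2 -0.10, SE 0.0311, adjusted p = 0.00953). With library totals in place of TMM factors the fall of Mcl1 in the knockout line was not called (log2 -0.22, adjusted p = 0.0717).

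Of the effectors, Bax fell and Bak1 hardly moved. Bax (chr7:45461697-45466898) was at 43.1 and 43.4 CPM with vehicle and 33.5 and 31.6 CPM with capmatinib in the parental line (log2 -0.43, SE 0.0476, adjusted p = 1.25e-09), and at 41.2 and 39.6 against 30.3 and 31.9 CPM in the knockout line (log2 -0.38, SE 0.0484, adjusted p = 4.26e-07). The treatments were apart in both lines. Bak1 (chr17:27019810-27029009) was at 91.9 and 92.1 CPM with vehicle and at 95.3 and 99.5 CPM with capmatinib in the parental line, which just passed (log2 0.07, SE 0.0310, adjusted p = 0.0496), and showed a log2 of 0.0091 in the knockout line (adjusted p = 0.840). The call of Bak1 in the parental line was lost under 5 of the alternatives tried for the processing, turned to a log2 of -0.12 with library totals, and was lost without vehicle replicate 1 (adjusted p = 0.0957), vehicle replicate 2 (adjusted p = 0.0735) or capmatinib replicate 2 (adjusted p = 0.306). Exons of Bak1 overlap Ggnbp1 on the other strand over 25.5% of their length, and Ggnbp1 was at most 1.02 CPM. The genes that overlap exons of Bax (Gm45808) and Bcl2 (D630008O14Rik) were at 0 and at most 0.0501 CPM.

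**Figure D3:**
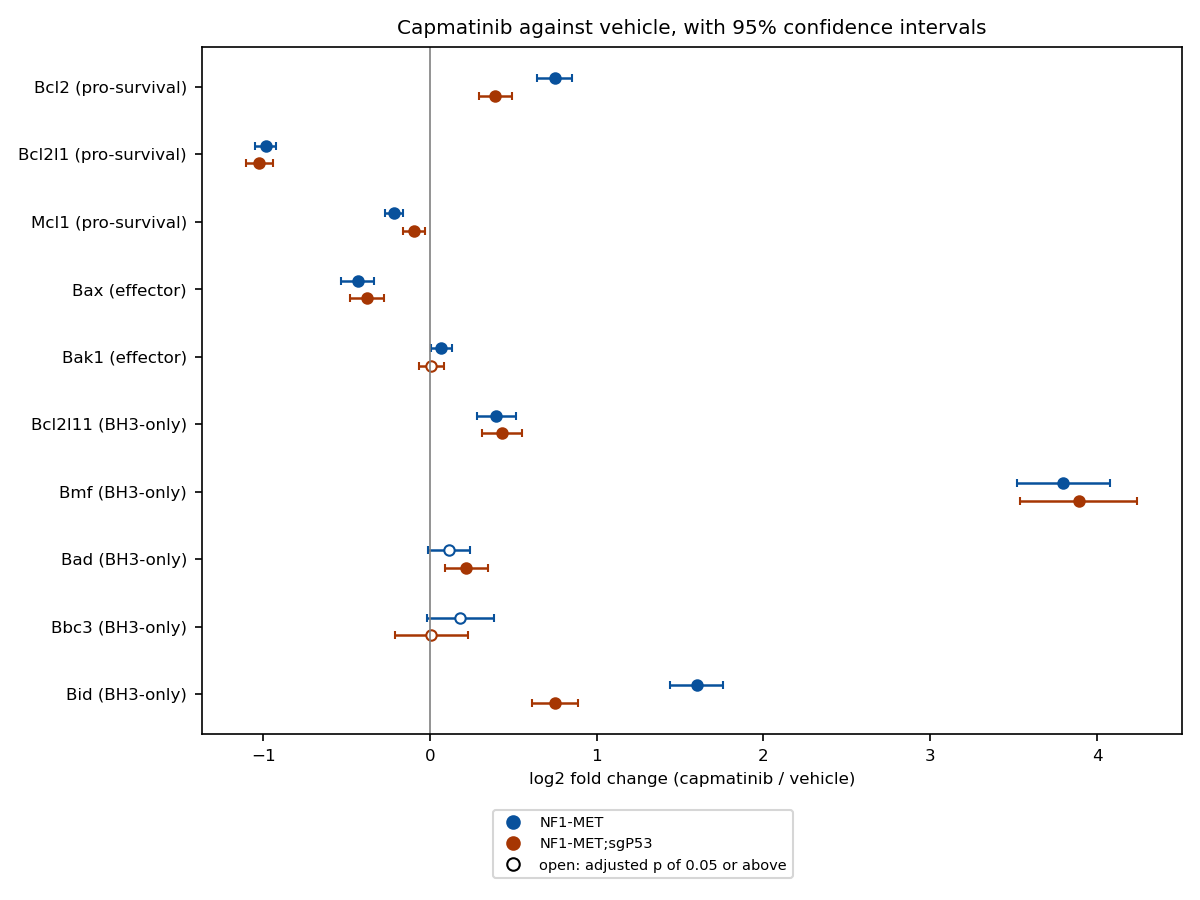
Log2 fold change of capmatinib against vehicle for each member in NF1-MET and NF1-MET;sgP53 (points) with 95% confidence intervals (lines), filled where the adjusted p was under 0.05. Bmf is at 3.80 and 3.89, Bcl2l1 at -0.98 and -1.02, and the intervals of the lines are apart for Bid and Bcl2.

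The lines were then compared under the same treatment to ask where the knockout line differed. With vehicle, Bid and Bak1 were higher in the knockout line and Bcl2l1 and Mcl1 lower, with 6 members not called. Of all genes, 10.9% were higher and 12.3% lower. With capmatinib no member was higher (5.94% of all genes were) and 3 were lower (Bcl2, Bcl2l1 and Bmf), against 6.34% of all genes. Beside the count of 0 from edgeR with capmatinib, 1 member (Bak1) was higher at an unadjusted p under 0.05, and DESeq2's Wald test also called 0. Bcl2l1 was the 1 member lower under both treatments, where 3.48% of all genes were, and no member was higher under both, where 3.09% of all genes were.

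Bid showed the largest difference between the lines with vehicle, at 1.79-fold (log2 0.84, SE 0.0861, adjusted p = 3.01e-07), and with capmatinib its difference was a log2 of -0.0055 (95% confidence interval -0.13 to 0.11). Bcl2l13, which shares exon bases with Bid, was higher in the knockout line with vehicle by a log2 of 0.15. Bcl2l1 was lower in the knockout line by a log2 of -0.38 with vehicle (SE 0.0338, adjusted p = 3.50e-08) and -0.42 with capmatinib (SE 0.0403, adjusted p = 8.98e-07). Mcl1 was lower with vehicle (log2 -0.18, SE 0.0271, adjusted p = 5.33e-05), a call lost with library totals (log2 -0.12, adjusted p = 0.275). Bak1 was higher with vehicle at 101 and 105 CPM against 91.9 and 92.1 CPM (log2 0.14, SE 0.0320, adjusted p = 0.00218).

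Bax and Bbc3, introduced above as p53 targets, were not called between the lines in the main test. Bax was at 43.1 and 43.4 CPM in the parental line and 41.2 and 39.6 CPM in the knockout line with vehicle, a log2 of -0.12 (95% confidence interval -0.21 to -0.03) whose adjusted p of 0.0502 lay at the threshold. It was called with DESeq2's size factors (adjusted p = 0.0497) and with a stricter filter on low counts (adjusted p = 0.0456). With capmatinib the value was -0.06 (adjusted p = 0.524). Bbc3 was at 7.36 and 7.20 CPM in the parental line and 6.84 and 6.86 CPM in the knockout line with vehicle (log2 -0.11, 95% confidence interval -0.31 to 0.09), and with capmatinib at 8.78 and 8.02 against 6.27 and 7.50 CPM (log2 -0.28, interval -0.50 to -0.05, adjusted p = 0.111). The Bbc3 groups did not overlap under either treatment, but the second replicate of the knockout line with capmatinib mattered, since the test called Bbc3 without it (log2 -0.40, adjusted p = 0.0428). Cdkn1a in the same libraries differed by a log2 of -1.69 with vehicle and -1.95 with capmatinib.

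Bmf with vehicle was at a log2 of -0.54 between the lines (interval -1.22 to 0.14, adjusted p = 0.261), and without the first vehicle replicate of the knockout line it was called lower (log2 -0.96, adjusted p = 0.0356). With capmatinib, where its counts were higher, Bmf was lower in the knockout line by a log2 of -0.45 (SE 0.0765, adjusted p = 0.000528). Library totals took that call away (log2 -0.34, adjusted p = 0.0864). Bcl2 with vehicle was not called (log2 0.10, interval -0.02 to 0.22), and without the second vehicle replicate of the parental line it was (log2 0.22, adjusted p = 0.0175). With capmatinib Bcl2 was lower in the knockout line (log2 -0.25, SE 0.0468, adjusted p = 0.00128), which library totals did not call (log2 -0.14, adjusted p = 0.470). Bcl2l11 and Bad were not called between the lines, with log2 values of 0.02 and -0.09 with vehicle and 0.06 and 0.01 with capmatinib.

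A difference in response between the lines was tested as the interaction over the 8 libraries. It was found for 2 members, both with a smaller rise in the knockout line, and edgeR and DESeq2's Wald test each called 0 members with a positive interaction. At an unadjusted p under 0.05 edgeR had 1 (Mcl1), whose fall was smaller in the knockout line. Of all genes, 3.85% were called above and 5.86% below. Bid rose by a log2 of 0.87 less in the knockout line, with an interaction of -0.87 (SE 0.102, 95% confidence interval -1.08 to -0.65, adjusted p = 1.88e-06). Its levels with capmatinib lay together in both lines and the levels with vehicle did not. Bcl2 had an interaction of -0.37 (SE 0.0771, adjusted p = 0.00193), and here the lines lay closer together with vehicle than with capmatinib. The call for Bcl2 was lost with library totals (log2 -0.30, adjusted p = 0.275), and without any filter on low counts Mcl1 was called above (log2 0.13, adjusted p = 0.0445). Among the 8 members without a called interaction the interval was widest for Bmf, from -0.49 to 0.65.

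**Figure D4:**
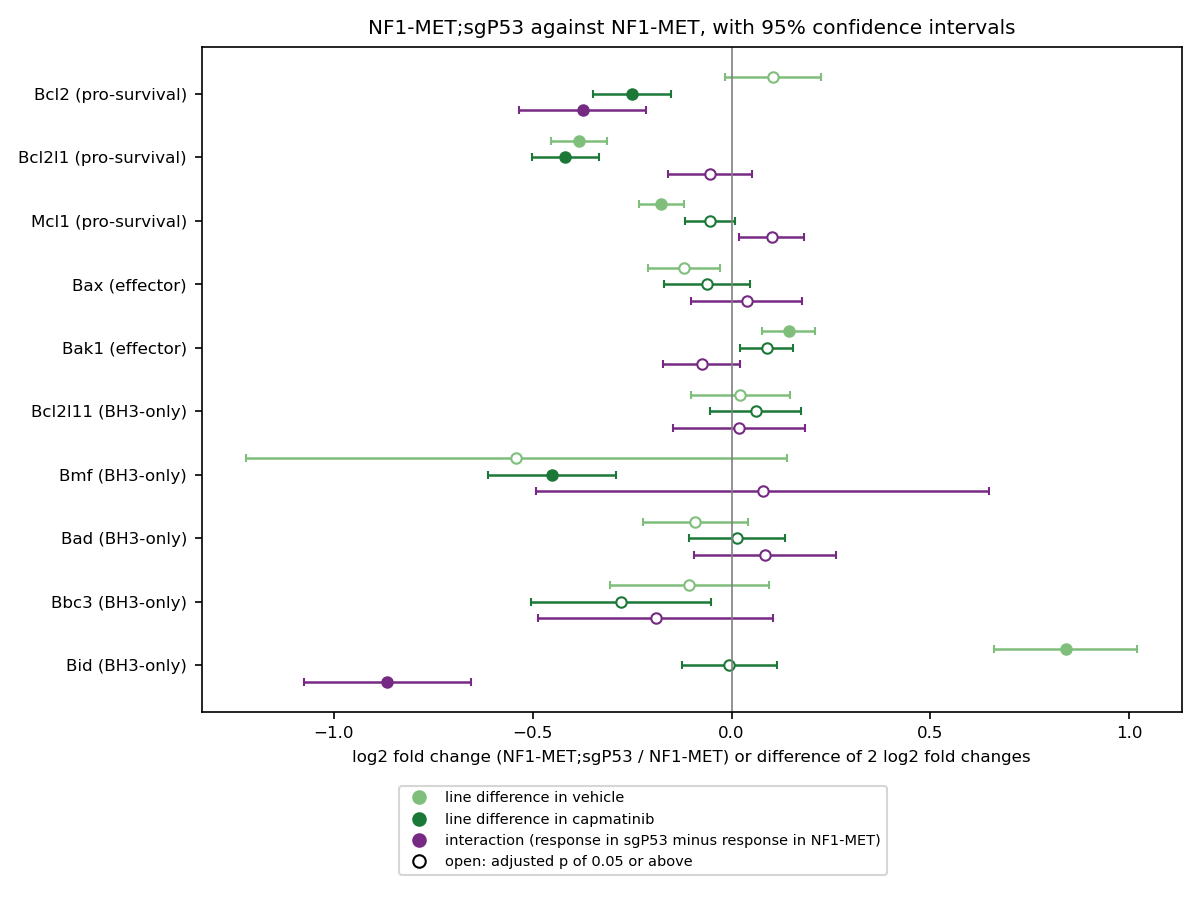
Log2 fold change between NF1-MET;sgP53 and NF1-MET for each treatment, and the interaction (the response in NF1-MET;sgP53 minus that in NF1-MET), with 95% confidence intervals, filled where the adjusted p was under 0.05. For Bid the difference is 0.84 with vehicle and -0.0055 with capmatinib, and Bcl2l1 lies at -0.38 and -0.42.

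Genes with the most similar profile over the 8 libraries were looked for among 8659 genes averaging 10 CPM or more, for the 3 members whose group means spanned more than 1 on the log2 scale. The measure was the root mean square distance between profiles centred on their means. Nearest to Bcl2l1 were Trib1 (distance 0.0404 log2) and Tmem200a (0.0508), nearest to Bid were Podnl1 (0.0843) and Fstl3 (0.0911), and nearest to Bmf were Cemip (0.220) and Btg2 (0.280). The other 7 members spanned less.

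The rest of the apoptosis pathway gave the setting. Of 79 listed genes in the table, 65 could be tested. With capmatinib 22 of them rose and 32 fell in the parental line, and 22 rose and 27 fell in the knockout line. Of all genes, 35.5% rose and 34.7% fell in the parental line and 34.2% and 33.4% in the knockout line. Of the 11 genes of the apoptosome and caspases, 2 rose and 6 fell in the parental line, and 2 rose and 5 fell in the knockout line. The median log2 fold change of this list was -0.28 and -0.18 in the lines, against 0.0020 and 0.0049 for all genes. Among 7 genes of the mitochondrial channel and membrane 1 rose and 5 fell in both lines. Ppif, which encodes cyclophilin D, was among those that fell in both (log2 -1.055 and -1.36).

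Among death receptors and adaptors the largest changes had opposite signs. Fas, the receptor whose signal reaches BID through caspase-8, was at 0.579 and 0.351 CPM (21 and 14 counts) with vehicle and 5.02 and 5.57 CPM with capmatinib in the parental line (log2 3.51, SE 0.220, adjusted p = 1.84e-15), and rose by 2.92 in the knockout line. Tnfrsf21 fell by a log2 of -1.47 and -1.81 at low levels, and Tnfrsf12a fell by -1.12 and -1.11. In the list 3 of 9 tested rose and 3 fell in the parental line, and 4 rose and 3 fell in the knockout line. Of 8 tested transcription factors upstream of the family, 6 rose and 2 fell in both lines, where 35.5% and 34.2% of all genes rose and 34.7% and 33.4% fell. The median log2 fold changes of this list were 0.50 and 0.49, against 0.0020 and 0.0049 for all genes. Ddit3, which encodes the stress factor CHOP, rose by 1.72 and 1.83. Foxo3, which is known to act on Bcl2l11 and Bbc3 and is named here after its values were seen, rose by 1.04 and 0.90. Jun fell by -0.39 and -0.57.

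Further family members outside the 10 followed no single direction, and their counts stand against the same shares of all genes (35.5% higher and 34.7% lower in the parental line, 34.2% and 33.4% in the knockout line). Of 4 tested further BH3-only genes, 2 rose and 1 fell in the parental line and 3 rose and 1 fell in the knockout line. The 1 that fell was Pmaip1, which encodes the MCL1-binding protein NOXA and is also named after its values were seen, at log2 -1.08 and -0.71. The effector Bok and the pro-survival Bcl2l2 each rose in both lines by at most a log2 of 0.26. Among the other BCL2-like genes 2 of 2 fell in the parental line and 1 of 2 in the knockout line. For inhibitors of apoptosis and their antagonists 2 of 7 rose and 3 fell in both lines, and for binding partners and turnover factors 2 of 9 rose and 7 fell in the parental line and 1 rose and 4 fell in the knockout line.

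The lines were compared over the same lists. With vehicle 8 of 65 were higher and 13 lower in the knockout line, against 10.9% and 12.3% of all genes. With capmatinib 4 were higher and 8 lower, against 5.94% and 6.34% of all genes. Of 10 tested p53 targets linked to death, 1 was higher and 5 lower with vehicle, and 2 higher and 3 lower with capmatinib. Trp53inp1, a p53 target involved in stress responses, went from 11.2 and 10.4 to 28.1 and 28.5 CPM under capmatinib in the parental line (log2 1.38) and from 2.82 and 3.11 to 21.6 and 20.7 CPM in the knockout line (log2 2.82). The knockout line was therefore below the parental one under both treatments, by a log2 of -1.87 with vehicle and -0.42 with capmatinib, and its interaction of 1.43 (SE 0.118, adjusted p = 5.29e-09) was opposite in sign to that of Bid. Zmat3 differed by -0.52 and -0.53, Pidd1 by -0.47 with vehicle and Aen by -0.31 with capmatinib. Higher in the knockout line were Tnfrsf21 (1.19), Ppif (0.38) and Birc3 (0.35) with vehicle, and Tnfrsf10b (0.19), Bnip3 (0.19) and Apaf1 (0.16) with capmatinib. In the interaction 6 of 65 lay above and 3 below, against 3.85% and 5.86% of all genes, led by Trp53inp1, Bnip3 (0.24) and Bag3 (0.22) above and Casp2 (-0.27), Jun (-0.19) and Slc25a5 (-0.14) below.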

How the data were processed

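RNA was measured in 8 libraries. The authors prepared poly(A) libraries with a KAPA kit, trimmed paired reads with Trim Galore 0.4.2, mapped them to mm10 with STAR 2.5.2b and deposited raw STAR counts per gene, with no normalization. The annotation release and strand setting are not given in the sources used here. Counts totalled 30.1 M to 42.8 M per library, and no numeric column was left unused. Genes reaching 10 counts in 2 or more libraries (14497), and above 0 in 2 or more libraries of a comparison, were tested with edgeR 4.0.16 in R 4.3.3 (TMM, quasi-likelihood F-test, Benjamini-Hochberg over all genes, threshold 0.05). CPM was scaled by TMM and TPM was computed with exon lengths of GENCODE M21. Procedures were tested on simulated data, in which far fewer genes changed than were called in any comparison here. DESeq2 1.42.0 and the other alternatives are given with the dependence on processing. The members and the lists were chosen with earlier results of these data known. Named are the 10 members, Trp53 and Cdkn1a, from the apoptosis lists the 3 called genes with the largest rise and the 3 with the largest fall per comparison, if their higher group averaged 1 CPM or more, and for members spanning over 1 log2 the 2 genes nearest in profile. Same-numbered replicates correlated between groups at -0.05 to 0.18 and were not taken as pairs. Some genes that the naming rule or the lists hold are not reported here.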

Additional observations from a re-analysis of the deposited data

Results flagged for a closer look

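The response to capmatinib differed between NF1-MET and NF1-MET;sgP53 for 2 of the 10 members by the interaction test in edgeR, both with a negative value, where 5.86% of all genes were called negative and 3.85% positive. For Bid the interaction was -0.87 on the log2 scale (adjusted p = 1.88e-06), with a rise in both lines and a larger one in NF1-MET. For Bcl2 it was -0.37 (adjusted p = 0.00193), again with a rise in both lines. Library totals in place of TMM factors ended the call for Bcl2 (log2 -0.30, adjusted p = 0.275). For both genes the 2 capmatinib libraries lay above the 2 vehicle libraries in each line. The cause of either difference was not tested.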

How the results depend on the processing

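Tried in place of the main choices were size factors from DESeq2, its Wald test, the bias-adjusted form of edgeR's test, no filter, a stricter filter, library totals instead of TMM factors, all libraries in 1 model, the replicate number as a block and each library left out in turn. Of 390 gene values under the former, 364 kept their direction and side of the threshold, 10 lost the call, 4 gained it and 12 changed sign. Of 240 values with a library left out, where the lone library was assumed to vary like the other groups, 221 kept both, 3 lost the call, 4 gained it and 12 changed sign. Library totals left 1 member called lower with vehicle between the lines, 1 with capmatinib and 1 in the interaction, and no filter gave 1 member above in the interaction. Library totals moved the all-gene median log2 value to -0.18 (NF1-MET) and -0.12 (knockout line) for capmatinib, to 0.060 and 0.11 between the lines with vehicle and capmatinib and to 0.052 for the interaction, and the genes called higher and lower from 5140 and 5029 to 3508 and 6381, from 4963 and 4841 to 3260 and 4933, from 1580 and 1775 to 1280 and 743, from 860 and 918 to 537 and 129, and from 558 and 849 to 192 and 123. Under it the values that changed sign were, for capmatinib in NF1-MET, Bak1 (-0.12), Bad (-0.069) and Bbc3 (-0.0021), in NF1-MET;sgP53 Bak1 (-0.11) and Bbc3 (-0.11), between the lines with capmatinib Mcl1 (0.061), Bax (0.053) and Bid (0.11), and in the interaction Bcl2l1 (0.023) and Bak1 (0.0059). Without the filter Bak1 (-0.0090) and Bbc3 (-0.0096) changed sign in NF1-MET;sgP53. With a library left out, capmatinib in NF1-MET;sgP53 ranged from -0.015 to 0.036 for Bak1 and -0.11 to 0.13 for Bbc3, the lines with capmatinib differed by -0.041 to 0.023 for Bid and -0.020 to 0.042 for Bad, and the interaction ranged from -0.022 to 0.092 for Bcl2l11, -0.0062 to 0.076 for Bax, -0.32 to 0.51 for Bmf and -0.098 to 0.024 for Bcl2l1. None of the values that changed sign was called except Bak1 in NF1-MET. With the replicate block, 5 members rose and 3 fell with capmatinib in either line, as without it, and Bax was called between the lines with vehicle (log2 -0.12, adjusted p = 0.0285). The causes were not tested.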
